A study of Drosophila melanogaster with 54 samples.

Results

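The glutathione S-transferase genes of Drosophila melanogaster were followed across 6 fly strains and 3 rearing temperatures. They were chosen by symbol alone, as every listed gene whose name is Gst, a class letter and a number, which gave 35 of the 13926 genes in the table. The D class (delta) had 11 of them, the E class (epsilon) 14, the O class (omega) 3, the S class (sigma) 1, the T class (theta) 4 and the Z class (zeta) 2.

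Glutathione S-transferases join the tripeptide glutathione to reactive, fat-soluble molecules, which makes these easier to excrete. The delta and epsilon classes belong to insects and other arthropods and have multiplied there by tandem duplication. Several of their members take part in resistance to insecticides, and GstD1 is a common reporter of the oxidative stress response that the transcription factor cnc drives. The theta, omega, zeta and sigma classes are shared with vertebrates. In mammals the zeta enzyme acts in the breakdown of tyrosine, and in flies an omega enzyme outside the name rule, se (sepia), makes a precursor of the red eye pigments.

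RNA was taken from whole males 10 days old, with 3 libraries for each of 18 groups of strain and temperature, 54 in all. Of the 6 strains, 5 expressed FLucDM-GFP, an unstable firefly luciferase fused to green fluorescent protein, which needs chaperones to fold. The protein was directed to the cytoplasm (Cyto, 1 copy of the transgene), to the nucleus (NLS, 1 copy or 2 copies) or to the mitochondria (Mito, 1 copy or 2 copies). The w1118 strain, isogenic per the labels, carried no FLucDM and was the control. Every strain was reared at 18, 25 and 29 °C. No source used here names the promoter of the transgene, and each genotype is 1 strain, so a difference between strains other than the transgene cannot be told apart from it. The study asked how flies respond to misfolding-prone proteins in different compartments.

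Levels are in TPM, a transcript abundance per length scaled to the same total in every library, which the authors computed. Between 11995 and 12158 genes reached 1 TPM in a library, and the lowest correlation of log2 values between libraries of a group was 0.9903. TPM keeps no read count, so the depth behind a value is unknown. Differences are on the log2(TPM + 1) scale, with a standard error (SE) from limma, with Benjamini-Hochberg adjusted p over the 12555 genes that reached 1 TPM in 3 libraries or more. A gene passed at an adjusted p under 0.05. Of the 35 genes 33 were tested. GstD4 and GstD6 were not, since GstD4 had a median of 0.315 TPM and a highest value of 1.70 TPM, and GstD6 a median of 0.42 TPM and a highest value of 2.57 TPM. In whole flies, fewer cells of a type and less RNA per cell cannot be told apart.

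The D genes form 1 cluster on chromosome 3R, from 12364776 to 12385624 on the BDGP6 annotation, a span of 20.849 kb. GstD10, GstD9 and GstD1 lie on the minus strand and the other 8 on the plus strand. Of the E genes, 10 form a second cluster on chromosome 2R, from 18396638 to 18409835, a span of 13.198 kb, in the order GstE10, then GstE1 to GstE9. GstE11, GstE12, GstE13 and GstE14 lie elsewhere on 2R. The O genes lie together on 3L between 8518885 and 8524866, GstT1 and GstT2 lie on 2R, GstT3 and GstT4 on X, and the Z genes on 3R. No source used here says how reads matching several of these related genes were assigned, or whether counting used strand, so a division of reads between close copies is uncertain. Exons of GstT2 share 223 bases with CG12926 on the opposite strand, and those of GstO2 share 61 bases with se. Shorter overlaps on the opposite strand lie in GstE9 (40 bases with imd), GstE12 (33 with CG3894) and GstE13 (6 with CG18659), and between GstE10 and GstE1 (20). The library kit does not mark strand, so reads from a shared stretch may belong to either gene, GstT2 having the longest. The exons of the D genes overlap no other gene.

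Across the 54 libraries GstD1 stood highest, at a mean of 940.2 TPM ± 211.1 (SD, n = 54). GstE12 followed at 396.2 TPM ± 70.5, GstT4 at 361.1 ± 47.8, GstS1 at 297.7 ± 38.2 and GstE9 at 259.2 ± 44.9. GstE12 and GstT4 overlapped in their ranges, as did GstS1 and GstE9, so only GstD1 stood clear of the next gene, its lowest library (677.5 TPM) lying above the highest of GstE12 (508.8 TPM). These 5 genes held a mean of 63.5% of the summed TPM of the 35, between 60.0% and 65.8% in single libraries. At the other end, GstD7 (3.85 TPM), GstE14 (4.80 TPM), GstD11 (5.17 TPM) and GstD2 (6.07 TPM) were the lowest of the genes tested.

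The classes differed in how evenly the level was spread. The 14 E genes held a mean of 37.8% of the summed TPM, the D genes 31.5%, the T genes 13.9%, GstS1 8.44%, the O genes 7.40% and the Z genes 0.992%. In the D class nearly all of the level came from GstD1 and GstD9, the next being GstD3 at 30.9 TPM. In the E class, by contrast, 6 genes had a mean above 80 TPM, namely GstE12, GstE9, GstE6, GstE3, GstE1 and GstE7.

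**Figure D1:**
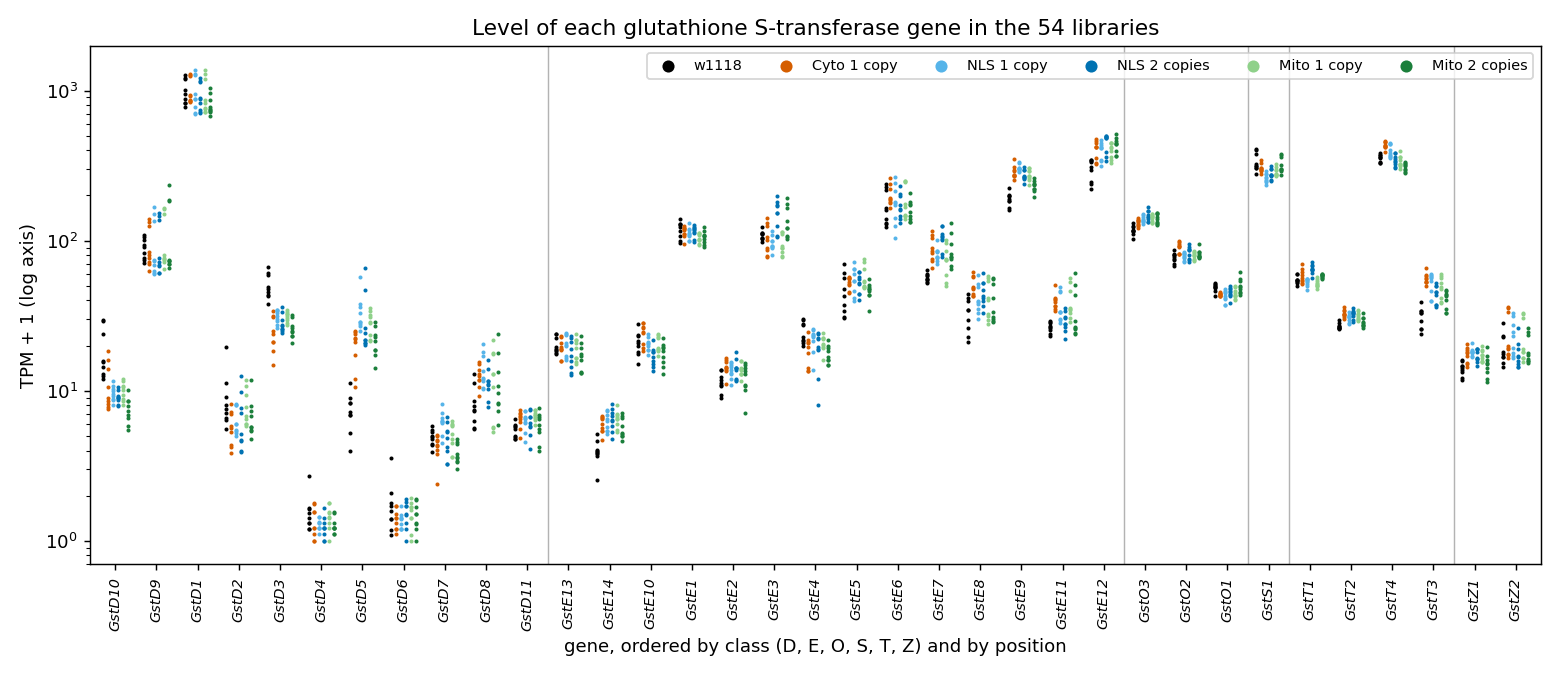
TPM + 1 on a log axis for each of the 35 genes, with 1 point for each of the 54 libraries, coloured by strain. The D class runs from GstD4 and GstD6, near the floor of the plot, to GstD1, whose lowest library is at 677.5 TPM; the black points of w1118 lie above all other strains for GstD3, and towards the low end for GstD5 and GstT3 and the high end for GstD10, where they overlap the others over all temperatures.

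The first comparison set the 5 FLucDM strains against w1118, averaged over the 3 temperatures. Of the 33 genes tested 18 were higher and 9 were lower, where 29.4% of all genes tested were higher and 41.4% lower. The median difference over the 33 was 0.10, beside -0.03 over all genes tested. The E class had 9 higher and 3 lower of 14, with a median of 0.25, while the D class had 3 higher and 4 lower of 9, with a median of -0.05. Of the rest, 2 of 3 O genes were higher and 1 lower, 2 of 4 T genes were higher, both Z genes were higher, and GstS1 was lower. Over the 33 genes, quantile scaling gave 21 higher and 8 lower, where 4477 and 4579 of the 12555 genes tested were. Median-ratio scaling gave 21 and 7, where 4557 and 4544 were, so the tilt of all genes towards lower depended on scaling.

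GstD5 had the largest rise of the 33. In w1118 it lay between 2.99 and 10.3 TPM, with a median of 6.22 TPM (n = 9), and in the 5 FLucDM strains between 9.66 and 64.4 TPM, with a median of 23.4 TPM (n = 45). Within each temperature no FLucDM library fell inside the range of w1118. The difference was 1.81 (SE 0.10, adjusted p = 4.82e-19), a ratio of mean TPM of 3.98. By strain it was 2.18 for NLS 1 copy, 1.97 for Mito 1 copy, 1.93 for NLS 2 copies, 1.55 for Mito 2 copies and 1.42 for Cyto 1 copy (SE 0.14 in all 5).

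The level of GstD5 varied most in the NLS strains at 29 °C. The 3 libraries of NLS 2 copies gave 46.2, 23.4 and 64.4 TPM there, and those of NLS 1 copy 36.8, 35.4 and 56.4 TPM. The lowest of these 6 values still lay above every w1118 library.

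GstD3, which lies between GstD2 and GstD4 in the cluster, moved the other way. Its level in w1118 was 36.9 to 65.3 TPM, with a median of 46.5 TPM, and in the FLucDM strains 13.8 to 35.3 TPM, with a median of 27.3 TPM. The ranges did not overlap at any temperature or over all libraries. The difference was -0.83 (SE 0.05, adjusted p = 7.29e-19), and it was largest in size in Cyto 1 copy, at -1.06, and smallest in NLS 1 copy and Mito 1 copy, at -0.68 in each.

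GstD10, at the end of the D cluster, was also lower in every FLucDM strain. It ran from 11.0 to 28.8 TPM in w1118, median 14.6 TPM, and from 4.52 to 17.4 TPM in the others, median 7.97 TPM. The highest w1118 values were all at 18 °C, at 22.9, 28.8 and 28.4 TPM, and within each temperature the groups did not overlap. The difference was -0.92 (SE 0.05, adjusted p = 1.45e-19) and reached -1.24 in Mito 2 copies.

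Other D genes moved less. GstD8 rose by 0.58 (SE 0.08) from a mean of 7.12 TPM ± 2.51 to 11.4 TPM ± 4.23, with overlapping ranges, and GstD11 rose by 0.21 (SE 0.06). GstD1 fell by 0.11 (SE 0.03, adjusted p = 4.51e-04), from a mean of 991.4 TPM ± 183.6 to 930.0 TPM ± 216.6. The fall is smaller than either SD, but those SDs span the 3 temperatures, while the model compares strains within a temperature. With median-ratio scaling GstD1 did not pass (-0.07, adjusted p = 0.052). GstD9 (0.06, adjusted p = 0.13) and GstD7 (-0.05, adjusted p = 0.6) did not pass, although GstD9 did under both other scalings, at 0.13 (quantile) and 0.10 (median-ratio).

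GstD2 passed as lower, at -0.39 (SE 0.10, adjusted p = 5.4e-04). At single temperatures it passed at 18 °C (-1.14) and not at 25 °C (-0.23, adjusted p = 0.275). The 3 w1118 libraries at 18 °C gave 7.10, 18.6 and 10.3 TPM, and the FLucDM libraries at that temperature lay between 2.96 and 6.01 TPM. At 29 °C alone the difference was 0.18 and did not pass (adjusted p = 0.37). Without the w1118 library at 18.6 TPM the mean difference was -0.28 and still passed.

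Among the E genes, GstE12 combined a high level with a difference that held in every strain. It lay between 219.6 and 343.8 TPM in w1118, median 306.5 TPM, and between 313.3 and 508.8 TPM in the FLucDM strains, median 418.4 TPM. Within each temperature the ranges did not overlap. The difference was 0.50 (SE 0.02, adjusted p = 2.04e-22), from 0.44 in NLS 1 copy to 0.59 in NLS 2 copies.

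GstE7 and GstE14 had larger rises on the log scale. GstE7 lay between 51.0 and 63.1 TPM in w1118, median 54.8 TPM, and between 49.0 and 129.8 TPM in the FLucDM strains, median 81.6 TPM, a difference of 0.58 (SE 0.05, adjusted p = 9.75e-15). At 25 °C the libraries of Mito 1 copy, at 58.5, 49.0 and 51.2 TPM, overlapped those of w1118, at 59.0, 63.1 and 58.0 TPM, while at 18 and 29 °C every FLucDM library was above them.

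GstE14 (noppera-bo), which is required for ecdysteroid hormone synthesis, was at a median of 2.93 TPM in w1118 (range 1.54 to 4.12) and 5.32 TPM in the FLucDM strains (range 3.64 to 7.20). The ranges did not overlap within a temperature. The difference was 0.65 (SE 0.07, adjusted p = 2.42e-11), and at such low levels adding 1 to each TPM understates it, the ratio of the means being 1.75.

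Within the 10-gene E cluster, 6 genes were higher and 2 lower. The last 3 genes in its order rose, GstE7 by 0.58, GstE8 by 0.42 and GstE9 by 0.53, as did GstE2 (0.25) and GstE5 (0.25) and, by a narrow margin, GstE6 (0.09, adjusted p = 0.0413). GstE10 (-0.07, adjusted p = 0.183) and GstE3 (0.05, adjusted p = 0.256) did not pass, although GstE3 did under quantile scaling (0.13, adjusted p = 0.012). GstE1 fell by 0.10, and did not pass under quantile (-0.03) or median-ratio scaling (-0.06). GstE4, in the middle, was lower at -0.35 (SE 0.07, adjusted p = 5.44e-05). Its range was 18.9 to 29.2 TPM in w1118, median 21.8 TPM, and 6.99 to 24.8 TPM in the FLucDM strains, median 18.8 TPM. Those ranges overlapped, and at 29 °C alone GstE4 did not pass (-0.12, adjusted p = 0.446).

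In the T class GstT3 and GstT2 rose. GstT1 did not pass (0.06, adjusted p = 0.0619), but did under quantile (0.11) and median-ratio scaling (0.10). GstT3 was between 23.0 and 38.1 TPM in w1118, median 31.8 TPM, and between 32.0 and 64.3 TPM in the FLucDM strains, median 48.4 TPM. It did not overlap within any temperature, with a difference of 0.64 (SE 0.03, adjusted p = 2.43e-22). GstT3 was highest in Cyto 1 copy, where the difference was 0.87, and lowest in Mito 2 copies, where it was 0.39.

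GstT4, the most abundant T gene, went in opposite directions in different strains. It lay between 327.8 and 381.2 TPM in w1118, median 358.9 TPM, and between 281.4 and 456.9 TPM in the FLucDM strains, median 357.9 TPM, so that the range of w1118 fell inside that of the others (0.02, adjusted p = 0.537, and 0.06 under median-ratio scaling, adjusted p = 0.0427). It was higher in Cyto 1 copy (0.28) and NLS 1 copy (0.15), and lower in Mito 1 copy (-0.08) and Mito 2 copies (-0.20), all 4 past the threshold. The call in Mito 1 copy was lost under both other scalings, at -0.05 in each.

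The single S gene, GstS1, whose product is abundant in flight muscle and clears products of fat oxidation, was lower by a small margin. It lay between 277.9 and 406.9 TPM in w1118, median 314.5 TPM, and between 232.2 and 376.6 TPM in the FLucDM strains, median 288.2 TPM. The ranges overlapped and the difference was -0.21 (SE 0.02, adjusted p = 2.44e-10). In the O class GstO3, the highest of the 3, rose by 0.25 (SE 0.02), from a median of 115.5 TPM (101.9 to 129.7) to 137.5 TPM (121.0 to 165.3). GstO2 rose by 0.10 and GstO1 fell by 0.12. The omega gene se, which lies among them and is not named Gst, was lower at -0.98 (SE 0.07, adjusted p = 2.89e-16), from a median of 17.8 TPM to 7.45 TPM.

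**Figure D2:**
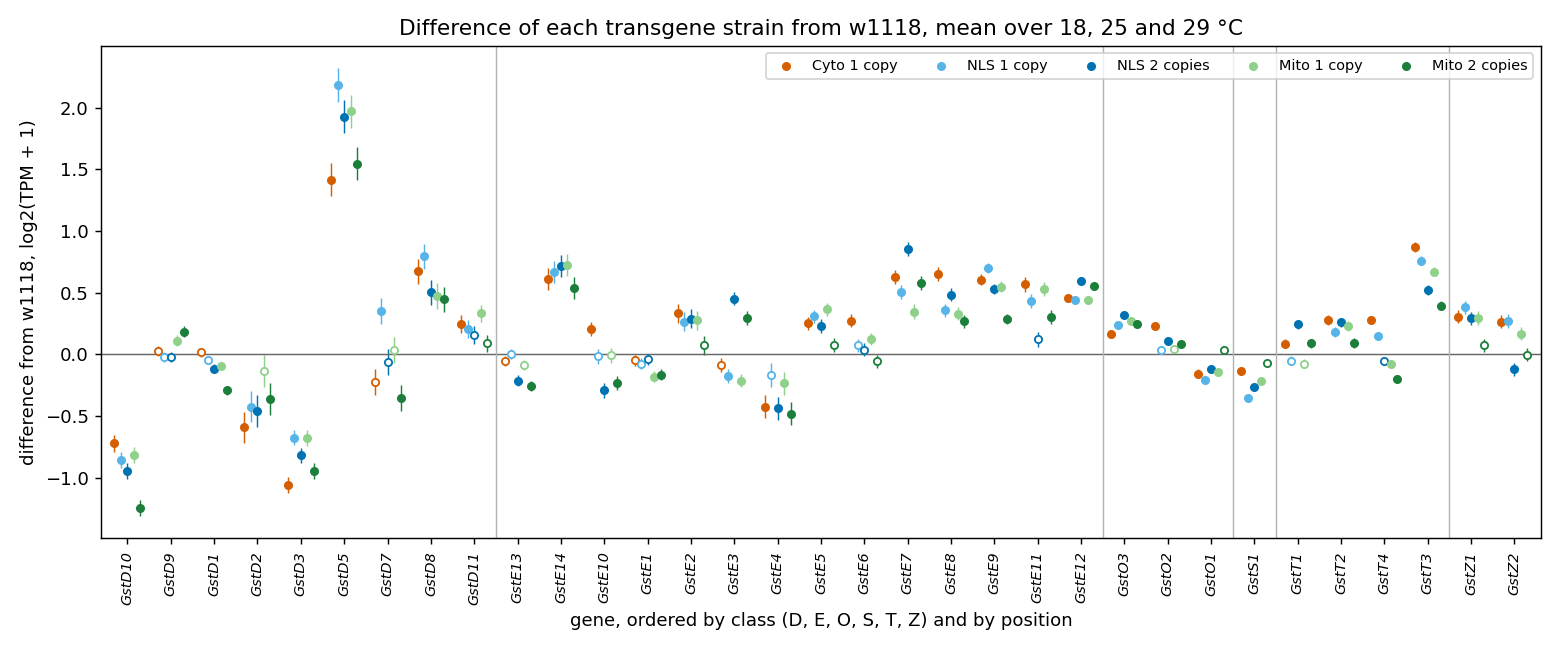
Difference of each FLucDM strain from w1118 on the log2(TPM + 1) scale, mean over the 3 temperatures, for the 33 genes tested; bars are 1 SE, filled points passed and open points did not. GstD5 stands above 1.4 in every strain, GstD3 and GstD10 lie below -0.6 in every strain, and most E genes lie above 0.

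The strains were alike in direction for 12 genes. GstD5, GstD8, GstE7, GstE8, GstE9, GstE12, GstE14, GstO3, GstT2 and GstT3 were higher in each of the 5 strains, and GstD3 and GstD10 lower in each, where 12.7% of all genes tested were higher in all 5 and 19.0% lower in all 5. The 5 comparisons share the w1118 libraries. Taking each strain at each temperature alone, which gives 15 tests a gene, GstD5, GstE12, GstE14 and GstT3 were higher in 15 of 15 and GstD3 and GstD10 lower in 15 of 15. The share of all genes tested that passed in 15 of 15 is not given here, so these genes are not set against it. The genes GstD7, GstE3, GstE10, GstT4 and GstZ2 passed in opposite directions in different strains, GstZ2 being lower only in NLS 2 copies, where neither other scaling kept the call.

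Strain by strain, Cyto 1 copy had 21 genes higher and 6 lower, where 31.1% and 35.3% of all genes tested were. NLS 1 copy had 18 and 6 (30.5% and 38.3% of all genes tested) and NLS 2 copies 16 and 10 (26.1% and 41.0%). Mito 1 copy had 18 higher and 9 lower (26.6% and 36.7%) and Mito 2 copies 15 and 10 (19.6% and 36.3%). The median difference over the 33 genes was 0.25 in Cyto 1 copy and 0.08 in Mito 2 copies. For NLS 2 copies, median-ratio scaling gave 18 higher and 7 lower, where 4322 and 4275 of the 12555 genes tested were. For Mito 2 copies it gave 16 and 9, where 3284 and 3366 were. The summed level of the E class was lowest in w1118 at every temperature. At 18 °C it was 1067 TPM ± 7.23 in w1118 and 1347 to 1537 TPM in the means of the FLucDM strains, and at 29 °C it was 1153 TPM ± 54.4 beside 1299 to 1410 TPM.

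**Figure D3:**
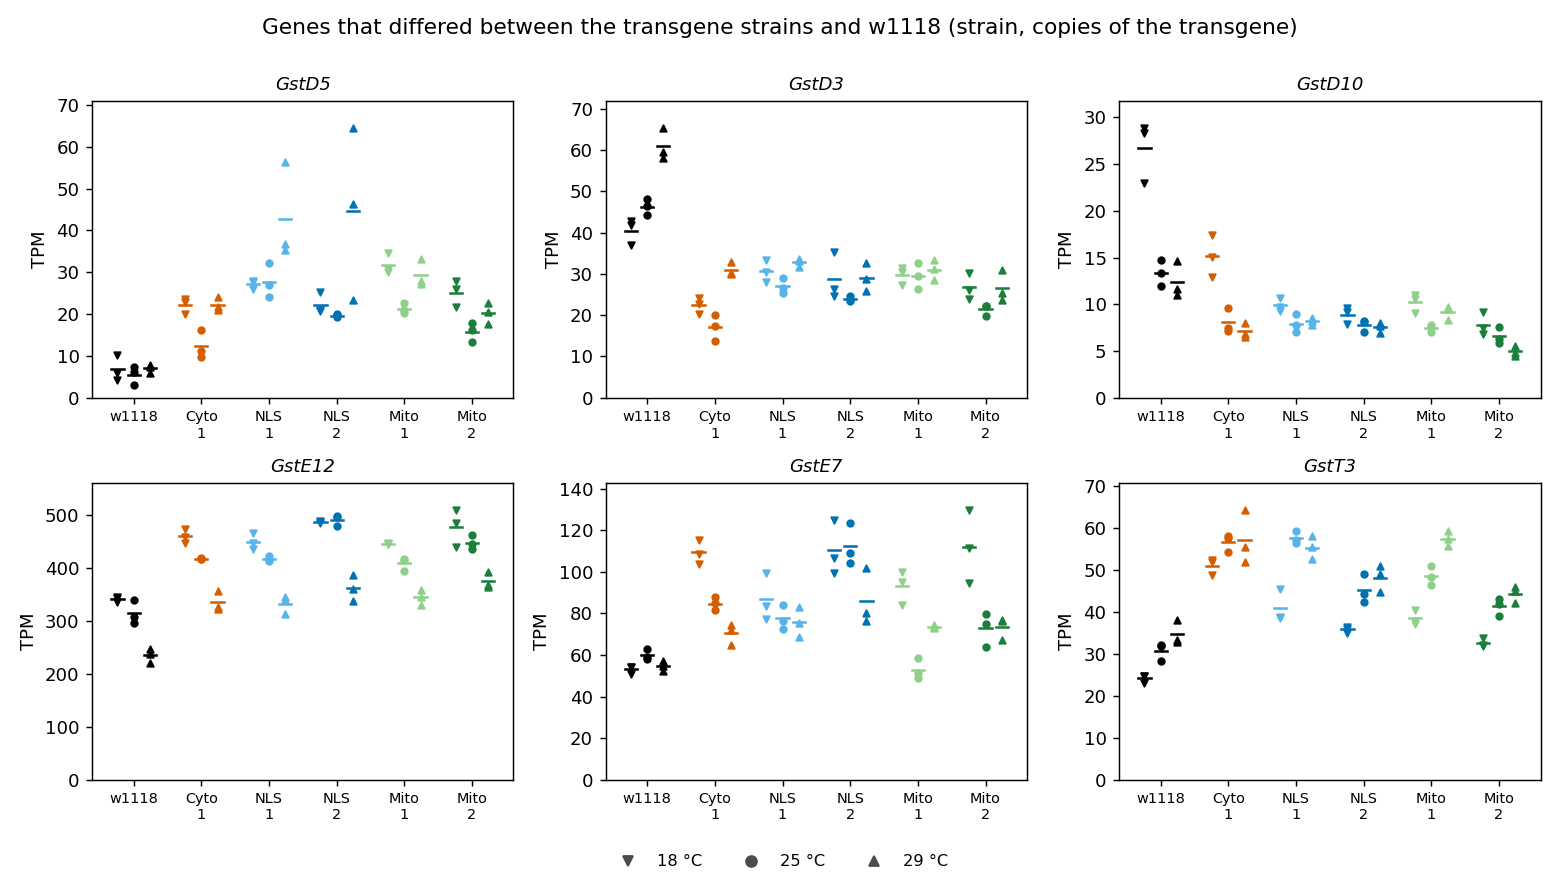
TPM in every library for 6 genes, by strain and copies of the transgene; triangles pointing down are 18 °C, circles 25 °C and triangles pointing up 29 °C, and short lines are means of 3 libraries. GstD5, GstE12 and GstT3 lie above w1118 at the same temperature in every library, and GstD3 and GstD10 below it.

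Markers of tissues that express these genes moved as well. All 6 fat body markers were higher in the FLucDM strains, their summed level being 673.8 to 905.3 TPM in w1118 and 736.5 to 1402 TPM in the FLucDM strains. Of 10 midgut markers 2 were higher and 6 lower (2230.0 to 2889 TPM against 2031 to 3312 TPM), and of 8 Malpighian tubule markers 5 were higher and 3 lower (286.7 to 519.1 TPM against 253.4 to 479.5 TPM). Of 16 testis markers 1 was higher and 15 lower (7334 to 10110.0 TPM against 6194 to 9697 TPM). No marker was at 0 in every library. The part of these shifts in the values of the transferases was not tested.

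The genes that supply and reduce glutathione, and those that regulate the pathway, were looked at beside the transferases. Of 23 such genes 15 were higher and 4 lower in the FLucDM strains, with a median of 0.12. Gclc, the catalytic subunit of the enzyme that limits glutathione synthesis, rose by 0.31 (SE 0.03, adjusted p = 8.82e-14) and its partner Gclm by 0.09 (SE 0.02). The regulator cnc had a difference of 0.02 (adjusted p = 0.367), and Keap1, which holds cnc back, rose by 0.12 (SE 0.03, adjusted p = 2.13e-03).

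A second copy of the transgene was compared with 1 copy in the same compartment. In the nucleus 7 genes were higher and 10 lower with 2 copies, where 12.8% and 15.4% of all genes tested were. In the mitochondria 6 were higher and 19 lower, where 18.9% and 23.3% of all genes tested were, and the median difference of the 33 genes was -0.18. No D gene was higher with 2 copies in either compartment, while 2 of 9 were lower in the nucleus and 6 of 9 in the mitochondria. The mitochondrial strains also differed in markers, with 13 of 16 testis markers higher and 5 of 8 Malpighian tubule markers lower with 2 copies. The part of this in the lower levels was not tested.

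GstE3 had the largest rise with 2 copies in both compartments. In NLS 2 copies its 9 libraries ran from 104.1 to 196.6 TPM and in NLS 1 copy from 79.6 to 114.7 TPM. The difference was 0.63 (SE 0.05, adjusted p = 2.54e-12). In Mito 2 copies they ran from 101.0 to 192.7 TPM and in Mito 1 copy from 77.0 to 113.4 TPM, with a difference of 0.51 (SE 0.05, adjusted p = 6.62e-10). Within each temperature, and in both compartments, every library with 2 copies was above every library with 1 copy.

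Against w1118, GstE3 had a difference of -0.18 with 1 copy in the nucleus and -0.21 in the mitochondria, and of 0.45 and 0.29 with 2 copies. All 4 passed, but that of NLS 1 copy did not under quantile (-0.06) or median-ratio scaling (-0.13). GstE7, in the same cluster, was also higher with 2 copies, by 0.35 (SE 0.06, adjusted p = 1.13e-05) in the nucleus and 0.23 (SE 0.06, adjusted p = 1.55e-03) in the mitochondria. At 29 °C the mitochondrial difference of GstE7 was -0.0051 and did not pass (adjusted p = 0.976). Nor did it pass at 18 °C (0.26, adjusted p = 0.125), or the nuclear difference of GstE7 at 29 °C (0.18, adjusted p = 0.225). The genes on either side of GstE3, GstE2 and GstE4, were lower with 2 mitochondrial copies, by -0.20 (adjusted p = 0.0339) and -0.24 (adjusted p = 0.0349). Neither call held under quantile scaling (-0.16, adjusted p = 0.122, and -0.20, adjusted p = 0.085). Nor did they under median-ratio scaling (-0.18, adjusted p = 0.0744, and -0.23, adjusted p = 0.0541).

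The largest falls with 2 copies lay in GstD7 and GstZ2 for the nucleus. GstD7 went from a mean of 5.26 TPM ± 1.08 to 3.79 TPM ± 1.23, a difference of -0.41 (SE 0.11, adjusted p = 2.68e-03). GstZ2 went from 22.4 TPM ± 6.27 to 16.6 TPM ± 3.78, a difference of -0.39 (SE 0.05, adjusted p = 2.52e-07). In the mitochondria GstD10 went from 8.95 TPM ± 1.37 to 6.46 TPM ± 1.47 (-0.43, SE 0.07, adjusted p = 1.90e-06) and GstD5 from 27.5 TPM ± 5.22 to 20.4 TPM ± 4.66 (-0.42, SE 0.14, adjusted p = 0.011). The ranges overlapped for all 4 genes, although GstD5 did not overlap within a temperature, where it did not pass either. GstD7 did not pass at 18 °C alone (-0.29, adjusted p = 0.319) or at 25 °C alone (-0.37, adjusted p = 0.23). GstZ2 did not pass at 18 °C alone (-0.23, adjusted p = 0.0926), nor GstD10 at 25 °C alone (-0.16, adjusted p = 0.345).

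The compartments were compared at 1 copy. NLS had 4 genes higher and 8 lower than Cyto, where 9.51% and 22.6% of all genes tested were. Mito had 4 higher and 10 lower than Cyto (9.69% and 16.8% of all genes tested), and 2 higher and 5 lower than NLS (19.2% and 11.8%). These splits depended on scaling. Median-ratio scaling gave 6 and 6 for NLS against Cyto and 5 and 7 for Mito against Cyto, and quantile scaling gave 5 and 6 for NLS against Cyto and 1 and 7 for Mito against NLS. Over the 12555 genes tested, median-ratio scaling gave 1882 higher and 1913 lower for NLS against Cyto. It gave 1598 and 1783 for Mito against Cyto and 2164 and 2166 for Mito against NLS. Of 16 testis markers 13 were lower in NLS than in Cyto and 13 higher in Mito than in NLS, and of 6 fat body markers 5 were lower in Mito than in Cyto, and the part of these in the values was not tested.

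GstD5 had the largest difference from Cyto in both other compartments. It lay between 9.66 and 24.1 TPM in Cyto, between 24.1 and 56.4 TPM in NLS and between 20.4 and 34.5 TPM in Mito. NLS and Cyto did not overlap, with a difference of 0.77 (SE 0.14, adjusted p = 2.53e-05), although at 18 °C alone it did not pass (0.28, adjusted p = 0.434). Mito exceeded Cyto by 0.55 (SE 0.14, adjusted p = 1.81e-03), with overlapping ranges. That difference did not pass at 18 °C alone (0.50, adjusted p = 0.161) or at 29 °C alone (0.38, adjusted p = 0.313). Mito and NLS differed by -0.21 (SE 0.14), which did not pass (adjusted p = 0.239), though it did with only these strains in the fit (adjusted p = 0.0496).

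GstT4 and GstE8 were higher in Cyto than in both other compartments on the mean over temperatures. GstT4 lay between 387.3 and 456.9 TPM in Cyto and between 297.7 and 391.8 TPM in Mito, so that only the extremes overlapped, and the difference was -0.36 (SE 0.03, adjusted p = 3.01e-11). In NLS it lay between 351.6 and 448.1 TPM, a difference from Cyto of -0.13 (SE 0.03, adjusted p = 0.00278), but at 25 °C the mean of NLS, 441.5 TPM ± 5.80, was above that of Cyto, 435.9 TPM ± 13.4. GstE8 had a mean of 49.2 TPM ± 7.11 in Cyto, 40.6 TPM ± 9.64 in NLS and 40.3 TPM ± 11.99 in Mito. It was lower than Cyto by -0.29 in NLS and by -0.32 in Mito (SE 0.05 in each). At single temperatures the NLS difference did not pass at 25 °C (-0.15, adjusted p = 0.278) or 29 °C (-0.15, adjusted p = 0.275). The Mito difference did not pass at 29 °C (-0.07, adjusted p = 0.67).

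GstD7 was higher in NLS than in Cyto (0.57, SE 0.11, adjusted p = 4.84e-05), and GstE10 was lower there (-0.22, SE 0.06, adjusted p = 3.47e-03), but at 29 °C alone the difference of GstE10 was 0.048 (adjusted p = 0.792). GstD2 was higher in Mito than in Cyto (0.46, SE 0.13, adjusted p = 6.58e-03), but did not pass at 18 °C alone (0.11, adjusted p = 0.794) or at 29 °C alone (0.61, adjusted p = 0.0787). Between Mito and NLS, GstS1 (0.14) and GstD9 (0.13) were higher in Mito and GstD8 (-0.32) and GstD7 (-0.31) lower. GstD9 did not pass under quantile scaling, nor without the third NLS 1 copy library at 29 °C. GstD7 lost its call when any 1 of 4 libraries was left out, which were NLS 1 copy at 25 °C replicate 3 and at 29 °C replicate 1, and Mito 1 copy at 25 °C replicate 2 and at 29 °C replicate 2. GstD8 was lower in Mito at 25 °C, where it gave 4.78, 4.67 and 4.28 TPM against 10.7, 12.6 and 11.1 TPM in NLS, and its difference was 0.15 at 18 °C and 0.037 at 29 °C.

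Rearing temperature was compared as the mean of the differences within the 6 strains. At 29 °C 14 of the 33 genes were higher and 12 lower than at 18 °C, where 42.9% of all genes tested were higher and 34.9% lower, and the median difference was 0.01. The D class had 5 higher and 3 lower of 9 and the E class 5 higher and 7 lower of 14. At 25 against 18 °C 9 were higher and 13 lower (31.8% and 32.4% of all genes tested), and at 29 against 25 °C 15 were higher and 7 lower (36.3% and 26.7%). The summed level of the D class in w1118 was 1003 TPM ± 48.0 at 18 °C, 1102 TPM ± 62.6 at 25 °C and 1429 TPM ± 43.0 at 29 °C.

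GstD9 had the largest rise with temperature. Its 18 libraries at 18 °C lay between 58.7 and 92.3 TPM, median 67.8 TPM, and those at 29 °C between 99.96 and 233.3 TPM, median 147.1 TPM. The ranges did not overlap, and the difference was 1.07 (SE 0.03, adjusted p = 1.75e-30). GstD1, its neighbour and the most abundant of the family, went from 677.5 to 862.9 TPM, median 746.1 TPM, to 861.6 to 1379 TPM, median 1233 TPM. The ranges touched at their ends, and the difference was 0.65 (SE 0.02, adjusted p = 3.38e-26).

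GstZ2 and GstE8 also rose with warmth. GstZ2 lay between 13.3 and 18.1 TPM at 18 °C, median 15.5 TPM, and between 17.9 and 35.0 TPM at 29 °C, median 26.9 TPM, a difference of 0.75 (SE 0.04, adjusted p = 2.75e-21). GstE8 lay between 20.2 and 48.2 TPM, median 33.3 TPM, and between 38.5 and 61.2 TPM, median 53.6 TPM, a difference of 0.61 (SE 0.04, adjusted p = 2.20e-18). The overlap in GstZ2 was between the highest library at 18 °C and the lowest at 29 °C, while GstE8 overlapped over a wider range.

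GstE13 and GstE12 fell with warmth in each of the 6 strains. GstE13 lay between 18.3 and 23.4 TPM at 18 °C, median 22.0 TPM, and between 11.8 and 18.7 TPM at 29 °C, median 14.8 TPM, a difference of -0.53 (SE 0.03, adjusted p = 3.66e-20). GstE12 lay between 335.2 and 508.8 TPM, median 446.7 TPM, and between 219.6 and 392.0 TPM, median 341.7 TPM, a difference of -0.43 (SE 0.02, adjusted p = 5.77e-22). Within every strain the libraries of GstE12 at 29 °C lay below those at 18 °C.

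GstD10 and GstE3 were lower at 29 °C on the mean over strains. GstD10 had a median of 10.1 TPM at 18 °C (range 6.87 to 28.8) and 7.99 TPM at 29 °C (range 4.52 to 14.6), a difference of -0.53 (SE 0.05, adjusted p = 1.38e-13). It fell in w1118, Cyto 1 copy and Mito 2 copies and did not pass in the other 3 strains. GstE3 had a median of 119.3 TPM (range 89.5 to 196.6) and 97.4 TPM (range 77.1 to 133.9), a difference of -0.43 (SE 0.04, adjusted p = 3.31e-13), and did not pass in w1118 or NLS 1 copy.

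Taking each strain alone, 8 genes were higher at 29 than at 18 °C in all 6 strains, namely GstD1, GstD9, GstE5, GstE6, GstE8, GstE11, GstT3 and GstZ2, and GstE12 and GstE13 were lower in all 6. Over all genes tested 10.2% were higher in all 6 and 9.14% lower in all 6. GstE5, GstE6 and GstE8 lie in the same cluster as GstE7 and GstE9, of which GstE7 was lower (-0.34) and GstE9 did not pass (0.05, adjusted p = 0.121). GstE12 and GstT3 both rose in the FLucDM strains, while with warmth GstE12 fell and GstT3 rose by 0.42.

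**Figure D4:**
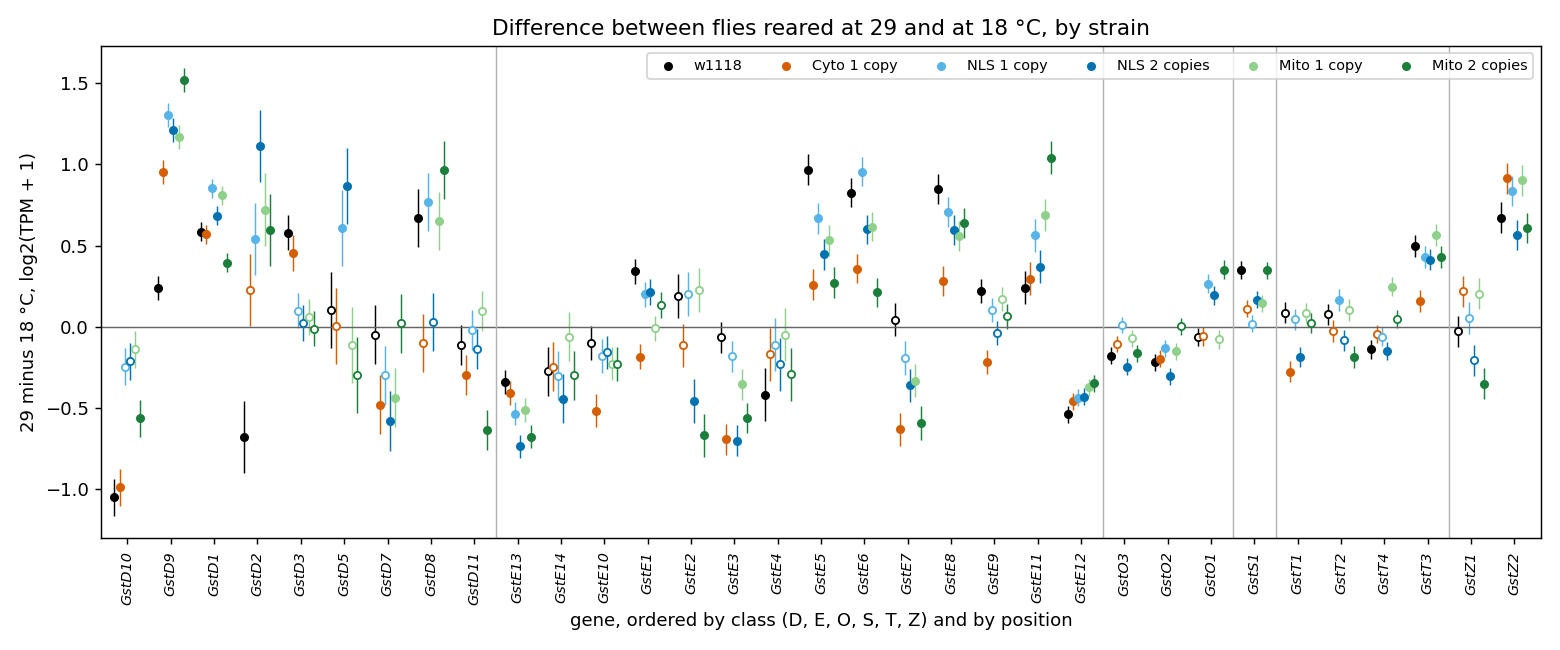
Difference between 29 and 18 °C on the log2(TPM + 1) scale in each of the 6 strains for the 33 genes tested; bars are 1 SE, filled points passed and open points did not. GstD9 is at 0.24 in w1118 and between 0.95 and 1.52 in the FLucDM strains, and GstE12 and GstE13 lie below 0 in all 6 strains.

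Markers moved with temperature too. Of 6 fat body markers 4 were higher and 2 lower at 29 than at 18 °C, of 10 midgut markers 5 and 3, of 8 Malpighian tubule markers 4 and 2, and of 16 testis markers 5 and 3. The summed level of the fat body markers was 677.2 to 1065 TPM at 18 °C and 673.8 to 1402 TPM at 29 °C, and that of the midgut markers 2174 to 2960.0 TPM and 2222 to 2863 TPM. The Malpighian tubule markers summed to 253.4 to 374.0 TPM and 307.1 to 519.1 TPM, and the testis markers to 7192 to 9011 TPM and 6194 to 10110.0 TPM. Their part in the temperature differences was not tested. Of the 23 glutathione supply and regulator genes 14 were higher and 7 lower at 29 °C. Gclc was lower at -0.58 (SE 0.02, adjusted p = 2.52e-24), with 73.6 to 100.5 TPM at 18 °C and 42.4 to 68.3 TPM at 29 °C, while cnc rose by 0.20 and Keap1 by 0.34.

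The difference between 29 and 18 °C was then compared between the FLucDM strains and w1118. It was higher in the FLucDM strains for 5 of the 33 genes and lower for 9, where 15.7% of all genes tested were higher and 15.9% lower. Of the 14 E genes 7 were lower and 1 was higher, and of the 9 D genes 3 were higher and 1 was lower. These are means over strains, and in NLS 1 copy alone the genes that passed as lower were GstD3 and GstS1, neither of the E class. For the mean over the 5 strains, quantile scaling gave 8 higher and 8 lower of the 33. Median-ratio scaling gave 5 and 10, where 1525 and 2610 of the 12555 genes tested were. In the same comparison 10 of 16 testis markers were lower and 2 of 6 fat body markers higher, and their part was not tested.

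GstD9 rose with warmth in every strain, and more in the FLucDM strains. In w1118 it gave 82.0, 90.4 and 92.3 TPM at 18 °C and 104.6, 107.7 and 99.96 TPM at 29 °C. In Mito 2 copies it gave 72.9, 65.0 and 69.3 TPM at 18 °C and 186.0, 233.3 and 183.0 TPM at 29 °C. Every FLucDM library lay below the w1118 libraries at 18 °C, at 58.7 to 74.6 TPM, and above them at 29 °C, so that the difference from w1118 was -0.42 at 18 °C (adjusted p = 4.61e-08) and 0.57 at 29 °C (adjusted p = 2.04e-11). The difference between 29 and 18 °C was 0.24 in w1118 and 0.95 to 1.52 in the FLucDM strains, an interaction of 0.99 (SE 0.08, adjusted p = 1.27e-12).

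GstD2 had the largest interaction, 1.32 (SE 0.24, adjusted p = 6.56e-05). It was lower at 29 than at 18 °C in w1118 (-0.68, adjusted p = 8.84e-03) and rose in 4 of the 5 FLucDM strains, the difference in Cyto 1 copy being 0.23 (adjusted p = 0.406). In NLS 2 copies it gave 2.96, 3.67 and 3.66 TPM at 18 °C and 11.5, 6.09 and 8.84 TPM at 29 °C. Without the w1118 library at 18.6 TPM the interaction was 0.97 and still passed.

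GstE5 and GstE7 had the largest interactions below 0. GstE5 in w1118 gave 29.9, 33.0 and 29.7 TPM at 18 °C and 55.3, 68.7 and 60.3 TPM at 29 °C, a rise of 0.97. In the FLucDM strains the rise was between 0.26 and 0.67, from a higher start, since each of their libraries at 18 °C but 1, at 32.8 TPM in Mito 2 copies, lay above the w1118 libraries. The interaction was -0.53 (SE 0.10, adjusted p = 1.54e-04). GstE7 did not pass in w1118 (0.04, adjusted p = 0.736) and fell in 4 of the 5 FLucDM strains, an interaction of -0.46 (SE 0.11, adjusted p = 1.58e-03). With NLS 1 copy alone the interaction did not pass for GstE5 (-0.30, adjusted p = 0.098) or GstE7 (-0.24, adjusted p = 0.245).

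**Figure D5:**
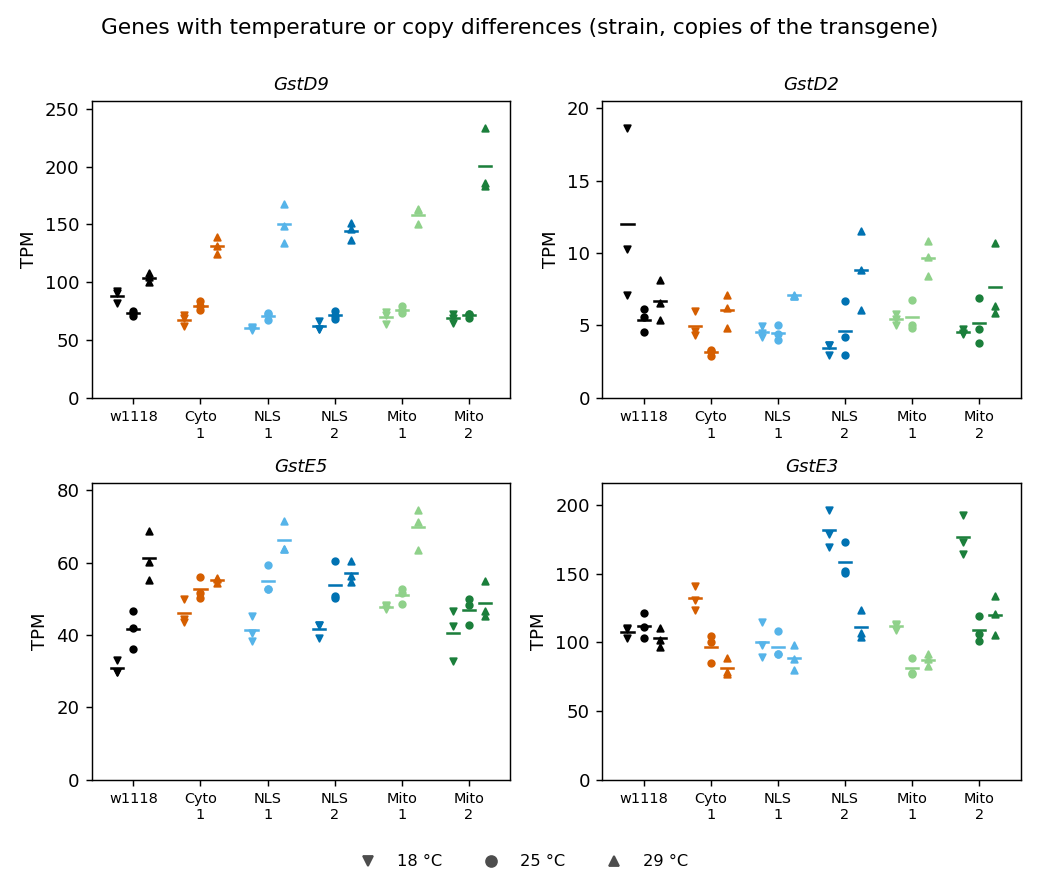
TPM in every library for GstD9, GstD2, GstE5 and GstE3, by strain and copies of the transgene; triangles pointing down are 18 °C, circles 25 °C and triangles pointing up 29 °C, and short lines are means of 3 libraries. GstD9 reaches 183.0 to 233.3 TPM in Mito 2 copies at 29 °C, 1 w1118 library at 18 °C stands at 18.6 TPM for GstD2, and GstE3 is higher with 2 copies than with 1 copy in both compartments.

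Genes of a class, or neighbours in a cluster, did not share a pattern as a rule. Over the 18 group means on the log2 scale, the median Pearson correlation was 0.09 between genes of the same class (137 pairs) and 0.06 between genes of different classes (391 pairs). By class it was 0.09 in D, 0.065 in E, -0.21 in O (3 pairs), 0.32 in T (6 pairs) and 0.20 in Z (1 pair). For the 8 pairs of tested neighbours in the D cluster it was 0.05, beside 0.10 for the other 28 pairs there. GstD4 and GstD6 were skipped, so GstD3 with GstD5 and GstD5 with GstD7 are counted among the 8. For the 9 pairs of neighbours in the E cluster the median was 0.03, beside 0.06 for the other 36. The pairs most alike were GstD1 with GstE6 (0.91), GstD1 with GstZ2 (0.90), GstE6 with GstZ2 (0.89) and GstE6 with GstE8 (0.87), and GstD9 with GstE13 was the most opposed (-0.81). The 18 means share libraries between genes, and the groups differ in strain and temperature, so these values are descriptions with no test.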

How the data were processed

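RNA of whole male flies was measured in 54 libraries, and the deposited table holds TPM, the authors' own values, for 13926 genes. Per the labels, TRIzol was used for extraction and a TruSeq RNA v2 kit for the libraries. BDGP6 and dm6 are the builds per the submitters' processing notes. Aligner, counter and depth: not given in the sources used here. A kit of this kind does not mark strand. Positions and exon overlaps come from the BDGP6 annotation.

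A linear model with 1 mean for each of the 18 groups of 3 libraries was fitted to log2(TPM + 1) of the 12555 genes that reached 1 TPM in 3 libraries or more (limma 3.58.1 in R 4.3.3, two-sided, with an intensity trend and 36 residual degrees of freedom). The Benjamini-Hochberg method was applied in each of 15 comparisons, at a threshold of 0.05. The procedure was tested on simulated data. The labels number the replicates without saying whether they were separate cultures, so p-values measure only the spread between these libraries, which may be technical. In 4 of 153 pairs of groups the deviations of all libraries with the same number correlated above 0.1. This count cannot exclude a pairing of libraries within some groups. The model holds no replicate block, and a block was fitted as an alternative.

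Values by library are given for the 4 largest rises and falls against w1118 and with temperature, and the 2 largest of each kind in the other comparisons, among genes past the threshold with a mean of at least 5 TPM in either arm, and for the highest gene of each class. Other genes named, such as GstD8, were chosen after their values were seen. The members and lists were chosen with earlier results of these data known. Alternatives were a pseudocount of 0.1, no filter, quantile and median-ratio scaling, a replicate block, only the strains compared, each temperature or strain alone, and leaving out each library. Sequences were not analysed here.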

Additional observations from a re-analysis of the deposited data

Results flagged for a closer look

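For 14 genes the difference between 29 and 18 °C itself differed between the FLucDM strains and w1118 (limma, adjusted p under 0.05). Each value is the mean difference over the 5 strains minus that of w1118, on the log2(TPM + 1) scale. It was above 0 for GstD2 (1.32), GstD9 (0.99), GstD10 (0.62), GstE11 (0.35) and GstO1 (0.20). GstD10 fell less with warmth in the FLucDM strains (-0.43 on the mean) than in w1118 (-1.05), and GstE11 rose more (0.59 against 0.24). For GstO1 neither difference was large, at 0.14 and -0.06.

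It was below 0 for GstE5 (-0.53), GstE7 (-0.46), GstD3 (-0.45), GstE3 (-0.43), GstE8 (-0.29), GstE6 (-0.28), GstE1 (-0.27), GstE13 (-0.23) and GstS1 (-0.19). Under quantile scaling GstE1 (-0.19, adjusted p = 0.13) and GstE6 (-0.22, adjusted p = 0.0965) did not pass. GstD3 rose with warmth in w1118 (0.58) and in Cyto 1 copy (0.46), and its difference lay between -0.01 and 0.10 in the other 4 strains. GstE6 and GstE8 rose in w1118 by 0.83 and 0.85 and in the FLucDM strains by 0.55 and 0.56 on the mean. GstE13 fell by 0.34 in w1118 and by 0.57 in the FLucDM strains, and GstS1 rose by 0.35 and 0.16. The 14 comparisons share the w1118 libraries.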

How the results depend on the processing

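With each alternative other than a single temperature or strain, 919 of 926 counts of genes stayed within 1.5 times the reported count. With the same alternatives, 1438 of 1444 values of the 40 differences chosen by the rule on named genes kept their direction and side of the threshold. The other 6 were calls of GstD9 and GstD7 in Mito against NLS. These 40 were chosen as the largest past the threshold, which favours a high share, so it does not describe the remaining calls. Of those against w1118 over the 5 strains, GstE1 and GstD1 lost their call under median-ratio scaling, and GstT1, GstT4 and GstD9 gained one. The counts that moved were Mito against NLS under quantile scaling (1 higher), the interaction under quantile scaling (8 higher), and single libraries left out. Without NLS 2 copies at 25 °C replicate 3, 4 genes were higher with 2 nuclear copies. In Mito against NLS, 3 genes were lower without NLS 1 copy at 29 °C replicate 1, Mito 1 copy at 25 °C replicate 2 or Mito 1 copy at 29 °C replicate 2, and 1 was higher without NLS 1 copy at 29 °C replicate 3. The cause was not tested.

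Leaving out each library in turn gave 16 to 19 higher and 8 to 10 lower for the 5 strains against w1118, 20 to 21 and 6 to 7 for Cyto 1 copy, 18 to 19 and 6 to 7 for NLS 1 copy, 16 to 18 and 9 to 10 for NLS 2 copies, 16 to 18 and 8 to 11 for Mito 1 copy, and 13 to 16 and 9 to 11 for Mito 2 copies. It gave 4 to 8 and 8 to 11 for 2 copies against 1 in the nucleus, 6 and 17 to 19 in the mitochondria, 3 to 5 and 7 to 9 for NLS against Cyto, 4 to 5 and 8 to 12 for Mito against Cyto, and 1 to 3 and 3 to 6 for Mito against NLS. For temperature it gave 14 to 15 and 12 to 13 at 29 against 18 °C, 8 to 9 and 13 to 15 at 25 against 18 °C, 15 to 16 and 7 to 8 at 29 against 25 °C, and 4 to 6 and 6 to 11 for the interaction.

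At single temperatures, where each arm has fewer libraries, these counts moved by over 1.5 times. The shares of all genes tested at a single temperature or strain are not given, so the counts below are not set against them. At 18 °C, 1 was lower with 2 nuclear copies, 2 higher and 5 lower with 2 mitochondrial copies, 1 higher and 14 lower in NLS against Cyto, 1 higher in Mito against Cyto, and 1 lower in Mito against NLS. At 25 °C, 3 were lower in NLS 1 copy, 4 lower in NLS 2 copies, 11 higher in Mito 1 copy, and 8 higher and 6 lower in Mito 2 copies, against w1118. At 25 °C also, 4 were higher and 6 lower with 2 nuclear copies, 3 higher and 5 lower with 2 mitochondrial copies, 5 lower in NLS against Cyto, and 1 higher and 8 lower in Mito against NLS. At 29 °C, 10 were higher and 6 lower in NLS 2 copies, 3 higher with 2 nuclear copies, 2 lower in NLS against Cyto, 2 higher and 1 lower in Mito against Cyto, and 1 higher and 0 lower in Mito against NLS (limma; 3 lower at an unadjusted p under 0.05). In single strains the same held at 29 against 18 °C for Cyto 1 copy (9 higher), NLS 1 copy (3 lower) and Mito 1 copy (6 lower). At 25 against 18 °C it held for w1118 (7 lower), Cyto 1 copy (1 higher), NLS 1 copy (6 lower), NLS 2 copies (5 lower), Mito 1 copy (2 higher, 7 lower) and Mito 2 copies (2 higher, 8 lower). At 29 against 25 °C it held for w1118 (3 lower), NLS 1 copy (9 higher, 3 lower) and Mito 1 copy (3 lower). For the interaction, which sets 29 against 18 °C, it held with Cyto 1 copy (2 higher), NLS 1 copy (2 lower) and Mito 1 copy (5 lower).

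Named differences that turned in sign did so at a single temperature: GstD2 against w1118 at 29 °C (0.18), GstE7 with 2 mitochondrial copies at 29 °C (-0.0051), GstE10 in NLS against Cyto at 29 °C (0.048), and GstD8 in Mito against NLS at 18 °C (0.15) and 29 °C (0.037). Other named differences that lost the call at some single temperature kept their sign.

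With the replicate block 18 genes were higher and 9 lower for the 5 strains against w1118, and in the other 14 comparisons no count moved by over 1.5 times. The block added GstD11 among those higher in NLS 2 copies and GstS1 among those lower at 25 against 18 °C. TPM keeps no depth, so no counting interval or floor could be given, and low genes such as GstD7 and GstD2 are the least certain.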
